A study of Prunus persica with 21 samples.

Results

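The comparison set 3 peach leaf libraries read as PpPep1 at 48 h against 3 libraries of PpPep2 at 48 h, 6 of the 21 libraries in the series. PpPep1 and PpPep2 are synthetic forms of plant elicitor peptides (Peps) of peach, which had been sprayed on both leaf faces of juvenile Big Top plants at 100 nM and 1000 nM in that order. Leaf blades without the central vein were frozen 48 h later. The t0 leaves, labelled mock but described by the study as untreated, are used below as context. The peptides were given at different doses, so peptide and dose cannot be told apart. RNA was measured as counts of read pairs per gene, and 18586 genes of the 27107 in the table passed the filter on low counts, each of them protein coding.

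The PpPep1 libraries were found by a matched reading of the count table. The 3 columns concerned are headed p2t24, which by name would be PpPep2 at 24 h, and their values are therefore called PpPep1-matched here. The mapping statistics of the study give, for each library, the read pairs assigned to a single gene and how many genes take up 25% of its reads. Totals of the p2t24 columns were 0.9706 to 0.9747 of the read pairs of the PpPep1 48 h libraries, but 0.635 to 0.758 of those of the libraries named in their headers. The numbers of genes holding 25%, which were 26, 32 and 34, equalled those of the PpPep1 48 h libraries. The columns headed p2t48 matched the PpPep2 48 h libraries they are named after, with ratios of 0.966 to 0.978 and 27, 27 and 32 genes. Over the table, 12 columns matched the library of their header and 9 did not, and all 21 columns matched the library at the same place when libraries are ordered by barcode. Whether the table or the statistics carry the naming error was not settled. Read by the headers alone, every value below would compare PpPep2 at 24 h with PpPep2 at 48 h. Under the matched reading, both groups come from the same library series and the same flowcells, whereas the t0 libraries come from another series and other flowcells.

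Peps are released from precursor proteins when cells are damaged or sense a pathogen. In Arabidopsis they bind PEPR receptor kinases at the cell surface, which act with the coreceptor BAK1 and start calcium influx, MAP kinase cascades and the transcription of WRKY, ERF and hormone genes. This response, pattern-triggered immunity, overlaps with that to bacterial flagellin sensed by FLS2, and much of its transcription is known to be transient. A comparison at 48 h therefore looks at leaves long after the first burst.

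Of the 18586 genes tested, 1 was called, or 0.00538%, and it was lower in PpPep1-matched leaves. A call required an adjusted p under 0.01 and a log2 fold change (PpPep1-matched over PpPep2 48 h) above 1 or below -1. No gene was higher by this rule (0% of the genes tested). The second smallest adjusted p was 0.125 by the quasi-likelihood test of edgeR, Benjamini-Hochberg adjusted, so a looser limit of 0.05 gave the same 1 gene. DESeq2 called 2 genes. Without adjustment, 1939 genes (10.4%) had a p under 0.05, with 953 higher and 986 lower in PpPep1-matched leaves. In 3067 genes (16.5%) the 3 libraries of one group all lay above the 3 of the other.

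Most genes were measured closely enough to bound the difference between the groups. The 95% interval of the log2 fold change, taken gene by gene without adjustment, lay inside -1 to 1 for 16287 genes (87.6%). This held for 98.3% of the 8323 genes with a mean of 10 to 100 CPM (counts scaled to library size) and for 39.7% of the 2973 genes under 1 CPM. For most of the scarce genes, a 2-fold difference in at least one direction lay within the interval. In all, 206 genes had a log2 fold change beyond 1 in either direction, and 163 of them had a mean under 1 CPM in both groups. The 37 most abundant genes, those that hold 25% of the counts in any of the 6 libraries, had log2 fold changes of -0.30 to 0.60, all 37 intervals inside -1 to 1. Of these, 25 were in the top set of all 6 libraries.

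**Figure D1:**
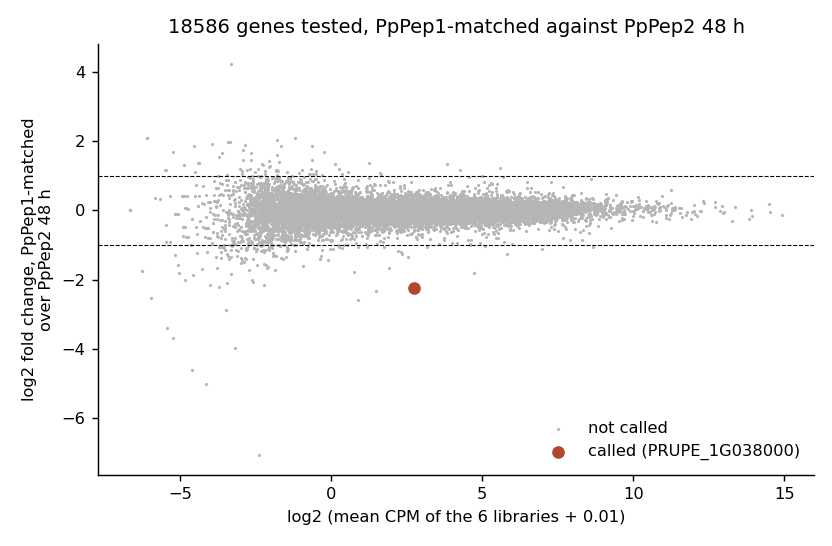
Each point is 1 of the 18586 genes, with the mean level of the 6 libraries on the x axis (log2 of CPM plus 0.01) and the log2 fold change of PpPep1-matched over PpPep2 48 h libraries on the y axis. Dashed lines mark -1 and 1. The cloud narrows around 0 as the level rises, and PRUPE_1G038000 at -2.23 is the 1 called gene.

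Taken over all genes tested, libraries of different groups were about as far apart as libraries of the same group. Distance was the root mean square difference of log2 CPM over the genes tested. It gives every gene the same weight, so differences in a part of the genes can go unseen. Between the groups, 9 pairs lay at 0.353 to 0.445 with a median of 0.383. Pairs of PpPep1-matched libraries lay at 0.370 to 0.406 and pairs of PpPep2 48 h libraries at 0.349 to 0.378. The shortest distance between the groups, 0.353, was below every distance among PpPep1-matched libraries. Total counts were 34873044 to 36972911 in PpPep1-matched and 33231519 to 59317510 in PpPep2 48 h libraries. Replicates are biological by the study's account, but the labels do not say from which plants each library came.

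**Figure D2:**
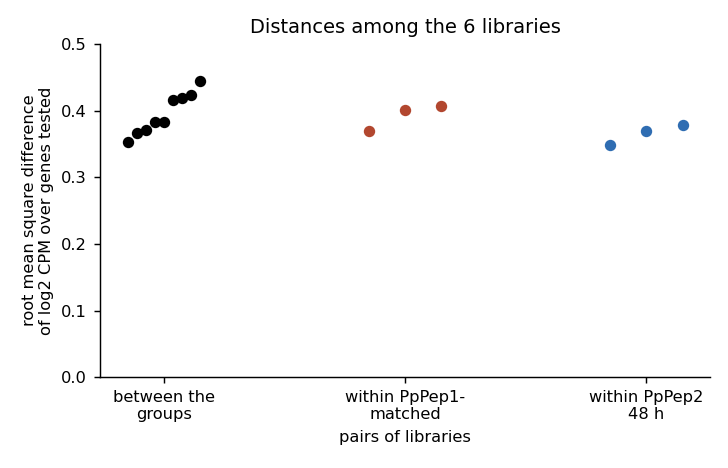
Points are pairs of libraries, and the y axis is the root mean square difference of log2 CPM over the genes tested. Pairs between the groups (9 points, 0.353 to 0.445) overlap with pairs within PpPep1-matched (3 points, 0.370 to 0.406) and within PpPep2 48 h (3 points, 0.349 to 0.378).

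PRUPE_1G038000, which no source used here pairs with a name, was the called gene. It had 75, 71 and 105 counts in PpPep1-matched libraries, against 367, 730 and 527 counts in PpPep2 48 h libraries. After TMM scaling its level was 2.32 ± 0.495 CPM in PpPep1-matched and 10.9 ± 2.496 CPM in PpPep2 48 h leaves (SD, n = 3 each), and the groups did not overlap. The log2 fold change was -2.23 (SE 0.26, 95% interval -2.79 to -1.68, adjusted p = 0.00152 by the quasi-likelihood test of edgeR, Benjamini-Hochberg adjusted). In the other 18 columns of the table, whatever their headers, it had 0.937 to 3.25 CPM, so the 3 PpPep2 48 h libraries, at 8.48 to 13.5 CPM, stood above all of them. Against t0 leaves (1.53 ± 0.472 CPM, SD, n = 3), its log2 fold change was 0.61 in PpPep1-matched and 2.84 in PpPep2 48 h leaves. The call was lost, with the direction kept, in a fit of only the 6 libraries (adjusted p = 0.0159 by edgeR with Benjamini-Hochberg adjustment) and in a fit without the columns headed p2t1 and p1t48 (edgeR adjusted p = 0.0330). It was also lost without PpPep1-matched replicate 1 (edgeR adjusted p = 0.0457), PpPep1-matched replicate 2 (0.0352) or PpPep2 48 h replicate 2 (0.0146), with log2 fold changes of -2.42 to -2.05 over the 6 fits that left out 1 library.

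**Figure D3:**
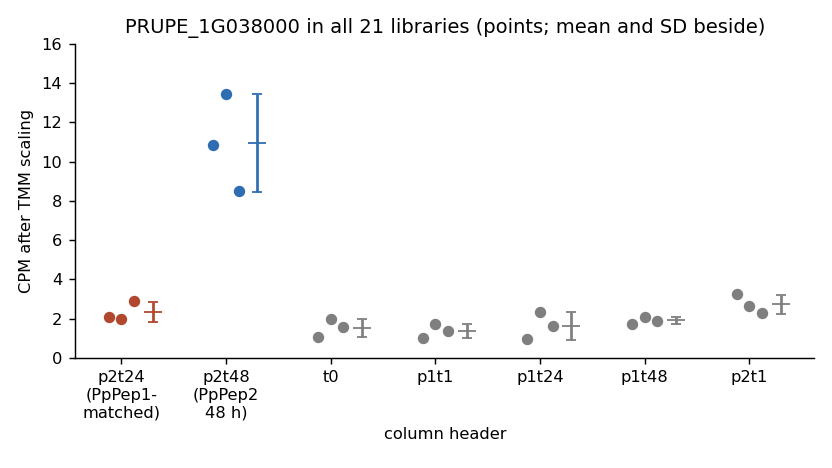
Points are the libraries and the mark beside them the mean with its SD (n = 3), in CPM after TMM scaling, for PRUPE_1G038000 under each column header. The 3 columns headed p2t48 (PpPep2 48 h) lie at 8.48 to 13.5 CPM and the other 18 at 0.937 to 3.25 CPM.

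A few unnamed genes below the limit were looked at after their values were seen. PRUPE_1G038100 carries the next identifier to the called gene. It had 6.87, 16.2 and 11.9 CPM in PpPep1-matched libraries, against 43.1, 55.6 and 24.8 CPM in PpPep2 48 h libraries. The groups did not overlap, but the libraries of each differed by more than 2-fold among themselves, and the log2 fold change of -1.82 (SE 0.49) was not called (adjusted p = 0.238 by edgeR with Benjamini-Hochberg adjustment). How far reads could be shared between it and its neighbour was not tested. PRUPE_4G087100, the second gene called by DESeq2 (adjusted p = 0.00293 by DESeq2), had 4.42, 3.91 and 4.33 CPM in PpPep1-matched libraries, against 1.45, 2.23 and 2.43 CPM in PpPep2 48 h libraries. Its log2 fold change in edgeR was 1.03 (SE 0.20, adjusted p = 0.135 by the quasi-likelihood test with Benjamini-Hochberg adjustment), and every PpPep1-matched library lay above every PpPep2 48 h library. PRUPE_7G103700 was the higher gene with the smallest edgeR p, with 40.2, 30.5 and 37.8 CPM in PpPep1-matched and 20.6, 26.2 and 24.4 CPM in PpPep2 48 h libraries, a log2 fold change of 0.61. Both rose above t0 in the PpPep1-matched leaves (log2 fold changes of 1.75 for PRUPE_4G087100 and 1.68 for PRUPE_7G103700), where the library series differ. For PpPep2 48 h against t0 the values were 0.72 and 1.07.

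None of the 4 genes of Pep and flagellin perception was called, and all 4 intervals lay inside -1 to 1. Since only 0.00538% of all genes tested were called, counts of 0 here and below do not set a list apart. The Pep receptor PpPEPR1a (PRUPE_3G167800) had 5.42, 6.55 and 6.86 CPM in PpPep1-matched libraries, against 7.19, 6.37 and 6.39 CPM in PpPep2 48 h libraries, and the groups overlapped. Its log2 fold change was -0.08, with a 95% interval of -0.45 to 0.29. Its paralog PpPEPR1b (PRUPE_3G167900) was at 2.08 ± 0.319 CPM in PpPep1-matched and 2.21 ± 0.458 CPM in PpPep2 48 h leaves (SD, n = 3 each), a log2 fold change of -0.07 (-0.50 to 0.36). RSEM divides reads that fit both paralogs between them. PpFLS2 (PRUPE_3G304400), the flagellin receptor, had 25, 19 and 25 counts in PpPep1-matched libraries, against 26, 26 and 35 counts in PpPep2 48 h libraries. These counts gave a log2 fold change of 0.11 (-0.46 to 0.69). BIR1 (PRUPE_8G186400), in Arabidopsis a BAK1-interacting kinase that restrains immune signalling, had 25.7, 17.3 and 27.97 CPM in PpPep1-matched libraries, against 29.9, 27.3 and 28.8 CPM in PpPep2 48 h libraries. The ranges overlapped, and its log2 fold change of -0.28 had an interval of -0.68 to 0.13.

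The 19 genes for which the study designed RT-qPCR assays span the pathway from receptors to defence proteins. With PpPEPR1b and PpFLS2 added, the 21 genes had log2 fold changes of -0.80 to 0.43 and adjusted p of 0.512 to 0.972 by edgeR's quasi-likelihood test, and 0 of the 21 had groups that did not overlap, against 16.5% over all genes tested. Of the 19, 15 were below 0 and 4 above, with a median of -0.22. The interval lay inside -1 to 1 for 11 of the 21 genes, so for the other 10 a difference of 2-fold was within it. 

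**Figure D4:**
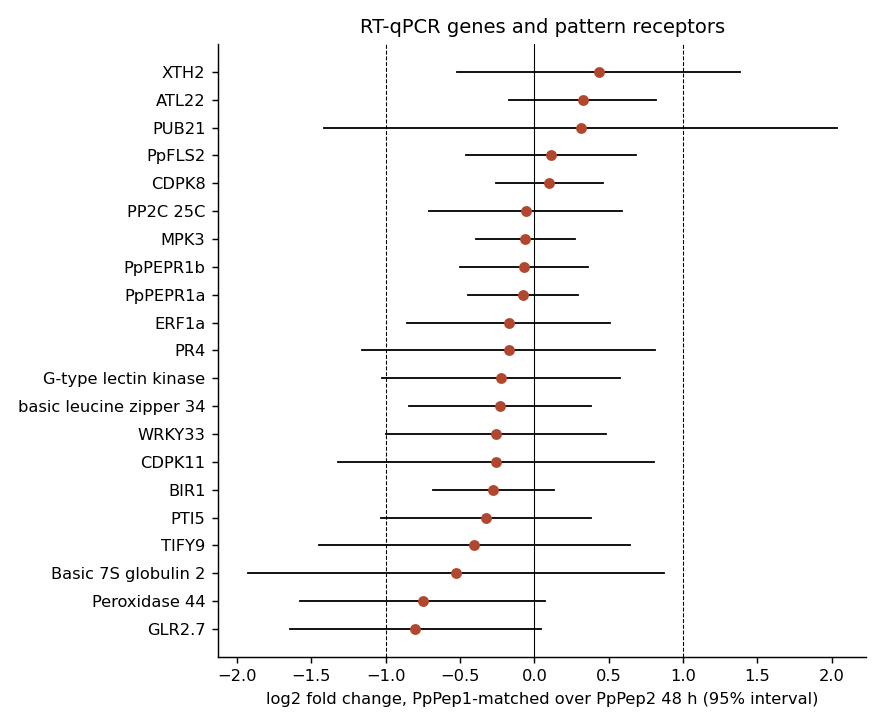
Points are log2 fold changes (PpPep1-matched over PpPep2 48 h) of the 19 RT-qPCR genes, PpPEPR1b and PpFLS2, and lines their 95% intervals without adjustment. Every point lies between -0.80 and 0.43, and the widest interval is that of U-box domain-containing protein 21 (PUB21, -1.41 to 2.04).

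Among signalling genes, MPK3 (PRUPE_6G091700), a MAP kinase of immune cascades, had 30.03, 30.9 and 31.5 CPM in PpPep1-matched libraries, against 33.96, 27.3 and 35.2 CPM in PpPep2 48 h libraries. Its log2 fold change was -0.06 (95% interval -0.39 to 0.27). The other MAP kinase genes of the list were MAP3K5 (PRUPE_3G168400) at 0.20 (0.01 to 0.40) and MAPKKK18 (PRUPE_6G054400) at 0.01 (-0.44 to 0.45), and 0 of the 3 were called. The calcium-dependent kinase CDPK8 (PRUPE_7G064300) stood at 43.6 ± 2.09 CPM in PpPep1-matched and 40.6 ± 1.52 CPM in PpPep2 48 h leaves (SD, n = 3 each). CDPK11 (PRUPE_7G090800) was scarcer and varied more, with 1.03, 0.562 and 2.01 CPM in PpPep1-matched libraries, against 1.63, 1.79 and 0.982 CPM in PpPep2 48 h libraries. Glutamate receptor 2.7 (PRUPE_4G056200), of the family of glutamate receptor-like ion channels, had the lowest log2 fold change of the 21 genes, -0.80 (-1.64 to 0.05). Its levels were 0.278, 0.422 and 0.358 CPM in PpPep1-matched libraries, against 0.622, 0.388 and 0.821 CPM in PpPep2 48 h libraries, and 1 PpPep2 48 h library fell within the PpPep1-matched range. The calmodulin-like gene CML31 (PRUPE_5G000600) went the other way at 0.79 (0.04 to 1.55), also at under 1 CPM. None of the 9 calcium signalling genes was called, beside 0.00538% of all genes tested.

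Receptor kinase lists were centred on 0 as well. Of 15 receptor-like and cytoplasmic kinases, 7 were above 0 and 8 below, between -0.26 and 0.24, and all 15 intervals lay inside -1 to 1. PCRK1 (PRUPE_2G210500), a cytoplasmic kinase that in Arabidopsis acts in pattern-triggered immunity, had 54.6, 51.8 and 52.3 CPM in PpPep1-matched libraries, against 43.99, 44.4 and 45.6 CPM in PpPep2 48 h libraries. The groups were apart, but by a log2 fold change of only 0.24 (0.09 to 0.39). Among 10 G-type lectin receptor kinases, 8 were above 0 and 2 had an unadjusted p under 0.05. These were PRUPE_4G194900, with 11.2 ± 1.12 CPM in PpPep1-matched and 8.13 ± 0.312 CPM in PpPep2 48 h leaves (SD, n = 3 each, log2 fold change 0.47), and PRUPE_4G031800 at 0.63. The 24 rust resistance kinases, of the Lr10 and LRK10L type, were split 12 and 12, with a median of -0.02 and 14 of the 24 intervals inside -1 to 1. Rust resistance kinase Lr10 (PRUPE_6G141600) was at 0.28 (-0.03 to 0.58). PRUPE_3G089700, one of the RT-qPCR genes, was counted in this list, although its name is that of a G-type lectin S-receptor-like kinase. It was at -0.22 (-1.03 to 0.58) and is not among the G-type lectin receptor kinases counted above.

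WRKY factors bind W boxes in the promoters of defence genes. WRKY33 (PRUPE_6G286000), a regulator of camalexin synthesis and resistance to necrotrophs in Arabidopsis, had 4.56, 3.15 and 7.28 CPM in PpPep1-matched libraries, against 8.02, 4.39 and 5.76 CPM in PpPep2 48 h libraries. The groups overlapped, and the log2 fold change of -0.26 had an interval of -0.998 to 0.48. Of the 25 WRKY genes tested, 0 were called, 16 were below 0 and 9 above, and the median was -0.14. WRKY69 (PRUPE_3G113300) had the highest value, 0.83 (0.22 to 1.43), at 0.621 ± 0.107 CPM in PpPep1-matched and 0.343 ± 0.0661 CPM in PpPep2 48 h leaves (SD, n = 3 each). WRKY6 (PRUPE_4G017600) was at -0.37 (-0.81 to 0.07).

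In the lists of other transcription factor families no member was called. The ethylene response factor ERF1a (PRUPE_5G061800) had a log2 fold change of -0.17 (-0.86 to 0.51) and the activator of pathogenesis-related genes PTI5 (PRUPE_4G055500) one of -0.33 (-1.03 to 0.38). DREB1D (PRUPE_2G289500), of the family that responds to cold and drought, was at 1.15, but its PpPep1-matched libraries spread from 0.0843 to 0.500 CPM. Among 5 NAC genes, NAC002 (PRUPE_6G238600) had 6.31, 6.72 and 6.26 CPM in PpPep1-matched libraries, against 3.82, 5.94 and 5.01 CPM in PpPep2 48 h libraries. The groups did not overlap, at a log2 fold change of 0.38 whose interval held 0 (-0.12 to 0.87). Basic leucine zipper 34 (PRUPE_4G172000) was at -0.23, MYB73 (PRUPE_8G134900) at 0.25 and the heat shock factor HSFB1 (PRUPE_4G046000), with under 0.2 CPM in every library, at 0.75. All 3 intervals held 0.

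Homeobox genes held the smallest p of any list member. HDG5 (PRUPE_5G029000) had 17.1, 16.0 and 17.5 CPM in PpPep1-matched libraries, against 10.8, 12.7 and 11.7 CPM in PpPep2 48 h libraries. PROTODERMAL FACTOR 2 (PRUPE_4G024800) had 7.26, 7.67 and 5.93 CPM in PpPep1-matched libraries, against 3.91, 5.28 and 4.73 CPM in PpPep2 48 h libraries. Both belong to the homeodomain-leucine zipper class that in Arabidopsis acts in the epidermis, and in both the groups were apart. The log2 fold changes were 0.52 (0.24 to 0.80) and 0.58 (0.24 to 0.91), and neither was called (adjusted p = 0.222 for HDG5 and 0.238 for PROTODERMAL FACTOR 2 by edgeR with Benjamini-Hochberg adjustment). Of the 24 homeobox genes, 5 had an unadjusted p under 0.05, 13 were above 0 and 11 below, and the median was 0.04.

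No gene of the growth regulator lists was called. Among the 15 GRAS genes, 12 were above 0, with a median of 0.15 beside 0.00 over all genes tested. They ranged from -0.09 to 1.11, and 13 of the 15 intervals lay inside -1 to 1. The DELLA protein DWARF8 (PRUPE_7G236100), a repressor of gibberellin responses, had a log2 fold change of 0.26 (-0.01 to 0.53), and scarecrow-like protein 13 (PRUPE_4G007500) one of 0.23 (-0.02 to 0.49). Auxin response factors were above 0 in 7 of 8, with all 8 intervals inside -1 to 1. An unadjusted p under 0.05 by edgeR was found in 1 of these 8 and in 0 of the 15 GRAS genes. Auxin response factor 9 (PRUPE_5G123400) stood at 57.5 ± 4.41 CPM in PpPep1-matched and 50.1 ± 1.92 CPM in PpPep2 48 h leaves (SD, n = 3 each). TCP20 (PRUPE_1G222000), of a family that controls cell division in leaves, was at -0.23 (-0.42 to -0.04), with all 3 PpPep1-matched libraries below the PpPep2 48 h libraries.

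Jasmonate and salicylic acid are among the hormones of plant immune responses. LOX1.5 (PRUPE_6G324400), a lipoxygenase, averaged 8.11 ± 1.32 CPM in PpPep1-matched and 8.12 ± 0.910 CPM in PpPep2 48 h leaves (SD, n = 3 each). OPR3 (PRUPE_7G200800), which reduces the jasmonate precursor OPDA, had a log2 fold change of -0.30 (-0.91 to 0.31), and TIFY9 (PRUPE_1G218500), a repressor of jasmonate signalling, one of -0.40 (-1.45 to 0.64). All 6 genes of the salicylic acid pathway were below 0, by at most 0.28, and all 6 intervals lay inside -1 to 1. Members of a list were not tested as a set, and 0 of these 6 had an unadjusted p under 0.05 by edgeR. The glutaredoxin GRXC9 (PRUPE_4G053500), a salicylic acid marker, had 1.97, 1.35 and 1.46 CPM in PpPep1-matched libraries, against 2.16, 1.73 and 1.95 CPM in PpPep2 48 h libraries. PCC1 (PRUPE_3G187300) was at -0.27 (-0.89 to 0.34) and NPR2 (PRUPE_3G178800), a relative of the salicylic acid receptor NPR1, at -0.07 (-0.29 to 0.16).

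Of 6 antimicrobial and pathogenesis-related genes tested, 5 were below 0, 0 were called and 0 had an unadjusted p under 0.05 by edgeR. Peroxidase 44 (PRUPE_7G016500) had 19.7, 8.54 and 11.8 CPM in PpPep1-matched libraries, against 26.1, 23.1 and 18.4 CPM in PpPep2 48 h libraries. PR4 (PRUPE_6G141100), a chitin-binding pathogenesis-related protein, had 20.5, 15.6 and 37.6 CPM in PpPep1-matched libraries, against 37.5, 20.2 and 25.8 CPM in PpPep2 48 h libraries. Both overlapped between groups, with log2 fold changes of -0.75 (-1.57 to 0.07) and -0.17 (-1.16 to 0.81). Basic 7S globulin 2 (PRUPE_1G152100) was at -0.53 (-1.93 to 0.87), and KTI2 (PRUPE_5G074500), of the Kunitz trypsin inhibitor family, at 0.21 (-0.24 to 0.65). All 4 cell wall genes were above 0, between 0.07 and 0.43, and 0 of the 4 had an unadjusted p under 0.05 by edgeR. Among them was xyloglucan endotransglucosylase/hydrolase 2 (PRUPE_3G171500), which remodels xyloglucan, at 0.43 (-0.52 to 1.38).

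No member of the lists of ubiquitin ligases, protein phosphatases 2C and disease resistance regulators was called. Of 12 ubiquitin ligases, 10 were above 0 by at most 0.32, and 1 of the 12 had an unadjusted p under 0.05 by edgeR. ATL6 (PRUPE_6G329500) was at 38.1 ± 1.402 CPM in PpPep1-matched and 31.4 ± 3.996 CPM in PpPep2 48 h leaves (SD, n = 3 each), and PUB17 (PRUPE_4G067800), which in other plants promotes cell death in immunity, at 38.6 ± 1.52 CPM in PpPep1-matched and 34.1 ± 1.70 CPM in PpPep2 48 h leaves (SD, n = 3 each). In both the groups did not overlap, at log2 fold changes of 0.28 and 0.18. ATL22 (PRUPE_5G120000) was at 0.32 (-0.17 to 0.82). U-box domain-containing protein 21 (PRUPE_3G164200) was the least settled of the assayed genes, with 1.84, 0.0281 and 1.21 CPM in PpPep1-matched libraries, against 1.66, 0.664 and 0.435 CPM in PpPep2 48 h libraries. Protein phosphatase 2C 25C (PRUPE_6G054500) stood at -0.06 (-0.71 to 0.59), and the 5 phosphatases of its list lay between -0.11 and 0.12. HSPRO2 (PRUPE_2G247600), of the disease resistance regulators, was at -0.29 (-0.93 to 0.36), and BON1 (PRUPE_5G141800), a copine that restrains immunity in Arabidopsis, at -0.08 (-0.25 to 0.09).

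Lipid degradation enzymes, some of which release signalling lipids from membranes, held members on both sides. Of 22 genes, 4 had an unadjusted p under 0.05 and 0 were called. Phospholipase D alpha 4 (PRUPE_3G051200) had 0.334, 0.281 and 0.248 CPM in PpPep1-matched libraries, against 0.118, 0.111 and 0.113 CPM in PpPep2 48 h libraries. The groups were apart at a log2 fold change of 1.32 (0.48 to 2.16, adjusted p = 0.271 by edgeR with Benjamini-Hochberg adjustment), on few counts. Triacylglycerol lipase 2 (PRUPE_3G304100) had 3.00, 2.25 and 2.87 CPM in PpPep1-matched libraries, against 5.33, 5.32 and 3.40 CPM in PpPep2 48 h libraries, or -0.78 (-1.31 to -0.25). Phospholipase A1-Iigamma (PRUPE_4G059100) was at 0.70 (0.18 to 1.21), with overlapping groups.

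The largest list, with 191 genes tested, was cluster 2 of the study's Pep network, which was translated from published Arabidopsis gene connections around selected peach genes. It holds 0 called genes, 107 above 0, 83 below and 1 without a count in the 6 libraries, and its median log2 fold change was 0.03. The study chose the genes at the start of that network on libraries of this series, so the list is not independent of them. SAP8 (PRUPE_6G127400), a zinc finger protein of the stress-associated family, had 114, 112 and 104 CPM in PpPep1-matched libraries, against 76.4, 88.6 and 86.1 CPM in PpPep2 48 h libraries. Its log2 fold change was 0.39 (0.15 to 0.63). The lowest value of the cluster, -1.32 (-2.21 to -0.43), was that of PRUPE_5G001600, whose name is given only as Poly polymerase and looks incomplete. It had 0.139 ± 0.0265 CPM in PpPep1-matched and 0.373 ± 0.172 CPM in PpPep2 48 h leaves (SD, n = 3 each). Over all 24 lists, 332 genes were tested and 0 called, beside 0.00538% of all genes. Of the 332, 32 (9.64%) had an unadjusted p under 0.05 by edgeR beside 10.4% of all genes, and 54 (16.3%) had groups apart beside 16.5%.

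**Figure D5:**
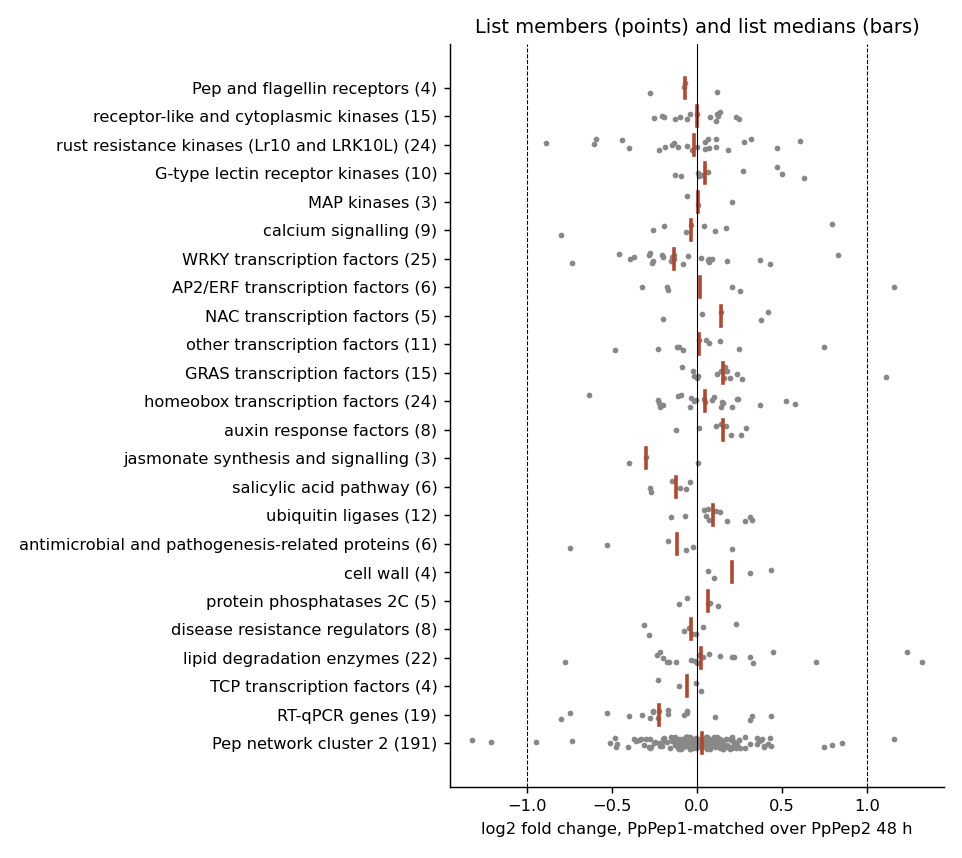
Points are the tested members of each list (their number in parentheses) by log2 fold change of PpPep1-matched over PpPep2 48 h, and bars are list medians. Dashed lines mark -1 and 1. All medians lie between -0.30 and 0.20, and 6 genes of the lists lie outside the dashed lines.

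Set against t0, each group gave more calls than the comparison between them. With the same rule, 841 genes (4.52%) were called in PpPep1-matched leaves, 404 higher and 437 lower, and 482 genes (2.59%) in PpPep2 48 h leaves, 263 higher and 219 lower. Both comparisons share the t0 libraries, and time, peptide and library series cannot be told apart in either. NAC002 rose in both, by 1.75 in PpPep1-matched and 1.38 in PpPep2 48 h leaves on the log2 scale. KTI2 fell in both, with log2 fold changes of -1.02 in PpPep1-matched and -1.23 in PpPep2 48 h leaves. Peroxidase 44 was called in PpPep1-matched leaves, at -1.51, and not in PpPep2 48 h leaves, at -0.76. The same held for triacylglycerol lipase 2 (-1.76 beside -0.99), phospholipase D alpha 4 (1.82 beside 0.50) and phospholipase A1-Iigamma (1.06 beside 0.36). Triacylglycerol lipase 2 was lower than t0 in both groups. In PpPep2 48 h leaves its adjusted p was 0.00357 by edgeR, and it missed only the limit on log2 fold change. For each of these 4 genes the direct comparison of the groups, given above, was not called. PRUPE_1G038100, like its neighbour, had 0.77 in PpPep1-matched leaves, which was not called, and 2.59 in PpPep2 48 h leaves, which was; its direct comparison was not called.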

How the data were processed

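Leaf RNA of 3 replicates in each of 7 groups was sequenced from stranded poly-A libraries. Per the submitters' notes and the methods, the authors aligned reads with STAR 2.5.3a, estimated expected counts with RSEM 1.3.0 and compared groups with DESeq2 1.20.0. The deposited counts are whole numbers, unnormalized, and the sources used here do not say how they were rounded or whether molecular identifiers removed duplicates. Columns keep the group of their header in every fit. A column was matched to a library where its total was 0.95 to 0.99 of the read pairs assigned to a single gene, with an equal number of genes holding 25%. Where a column matched 2 libraries, the one at its place in barcode order was taken.

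After filterByExpr removed low genes, TMM-scaled counts were tested with edgeR 4.0.16 (R 4.3.3, robust quasi-likelihood, Benjamini-Hochberg adjustment) in 1 model of all 21 columns and 7 groups. SE is the absolute log2 fold change divided by the square root of F, and 95% intervals use the test's degrees of freedom. CPM are TMM-scaled, and distances used a prior count of 2. Total counts ran from 33231519 to 59317510 over the table. In the model of all 21 columns, p-values set the difference between groups against a spread between replicates estimated over the 7 groups together. Alternatives were DESeq2 1.42.0, RLE scaling, no filter, a minimum of 1 CPM in 3 libraries, only the 6 libraries, leaving out columns headed p2t1 and p1t48, a replicate block, other thresholds and each library left out. Scripts were tested on simulated data.

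Gene lists, names and members were chosen with earlier results of these data known. Named are called genes, the RT-qPCR genes, both extra receptors and up to 3 list members with the smallest p, and genes chosen after their values were seen are marked. Names come from the table (266 genes) and the study's files, many from Arabidopsis. Positions were not looked up in a genome, and positions, sequences and leaf markers are not reported.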

Additional observations from a re-analysis of the deposited data

Results flagged for a closer look

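PRUPE_1G038000 is set out because its change from t0 differed between the groups by a direct test. The difference of the changes is the log2 fold change between the groups, -2.23 (SE 0.26, adjusted p = 0.00152 by the quasi-likelihood test of edgeR, Benjamini-Hochberg adjusted), with all 3 PpPep1-matched libraries below all 3 PpPep2 48 h libraries.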

How the results depend on the processing

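The count of called genes was 1, with 1 lower and 0 higher, under RLE scaling, no filter, the stricter filter, no limit on log2 fold change and an adjusted p under 0.05, and each time the called gene was PRUPE_1G038000. DESeq2 gave 2 genes called, 1 of them higher. The fit of only the 6 libraries and the one without the columns headed p2t1 and p1t48 gave 0 genes called and 0 lower, where edgeR's unadjusted p was under 0.05 in 1990 and 1948 genes. With each library left out, 0 to 1 genes were called and 0 to 1 were lower, with 1321 to 2213 genes at an unadjusted p under 0.05. No list member was called under any of the 15 alternatives. The replicate number as a block also gave 1 called gene, with a log2 fold change of -2.21 for PRUPE_1G038000. Deviations of same-numbered libraries correlated at 0.05, -0.13 and -0.08, and those of unlike numbers at -0.11 to 0.20. No effect shared by number was seen, but these values cannot tell whether same-numbered libraries share plants.

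Some genes that were not called changed sign under some settings. In the main fit their log2 fold changes lay between -0.26 (CDPK11) and 0.31 (U-box domain-containing protein 21). LOX1.5 (PRUPE_6G324400, log2 fold change 0.00) was at -0.000499 with RLE scaling, -0.0038 in DESeq2, -0.0156 without a filter, -0.0058 in the 6 libraries and -0.0029 with the replicate block, and MAPKKK18 (PRUPE_6G054400) at -0.0129 without a filter and -0.0025 in the 6 libraries. With each library left out, LOX1.5 ranged over -0.14 to 0.078, MAPKKK18 over -0.19 to 0.10, U-box domain-containing protein 21 over -0.40 to 0.92, PpPEPR1a over -0.15 to 0.018, PpPEPR1b over -0.20 to 0.090, PpFLS2 over -0.025 to 0.29, basic leucine zipper 34 over -0.41 to 0.059, KTI2 over -0.0076 to 0.34, protein phosphatase 2C 25C over -0.31 to 0.088, MPK3 over -0.17 to 0.010, PR4 over -0.62 to 0.095 and CDPK11 over -0.85 to 0.079.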
